A study of Arabidopsis thaliana with 6 samples.

Results

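The lcbk1-2 mutant of Arabidopsis thaliana was compared with its wild type at 3 times, and the transcripts whose difference had the same sign at every time were described. lcbk1-2 is labelled a knock-out mutant of LCBK1 in the Columbia-0 background, and the wild type is Columbia-0. Whole seedlings of 2 weeks were taken at 0 hr (22 °C) and after 3 hr and 24 hr at 4 °C, on medium with 2% sucrose in long days (16 h light, 8 h dark). The study has 6 arrays, 1 per genotype and time without replicates, and the comparison uses all of them. Each lcbk1-2 array was paired with the wild-type array of its time. Signals under 66 were set to 66, called the floor here, log2 values were taken, and control probe sets were left out. Features needed 2 arrays at or above the floor to be tested, which left 15654 features from 22746 probe sets, and 8472 of the 15654 carried a single gene name. The same sign at all 3 times was found for 4456 features (28.5%), 2367 higher in lcbk1-2 (15.1%) and 2089 lower (13.3%). Which direction was more frequent depended on the scaling of the arrays, with 2049 higher and 2474 lower after scaling to a common median and 2150 and 2286 after quantile normalization.

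LCBK1 encodes a long-chain base kinase. Such kinases phosphorylate sphingoid bases, the backbones from which ceramides and the sphingolipids of plant membranes are built, and the phosphorylated bases are cleaved by a lyase or returned by phosphatases. Free and phosphorylated long-chain bases are also known as signals, and in plants they have been linked to cell death, to stomatal closure and to the response to low temperature.

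LCBK1 (AT5G23450) has 0 probe sets in the annotation, so the targeted transcript was not checked and each array's genotype rests on its label. The labels name 1 mutant allele, do not say whether seedlings were pooled, and give no array of seedlings kept at 22 °C for 3 hr or 24 hr. Median signals of 144 to 171 were found per array, with 63.6% to 66.1% of probe sets at or above the floor. Relative to the other arrays, hybridization controls were at 2.21 on the wild-type 0 hr array and at 0.854 to 1.08 elsewhere. Actin 3' to 5' ratios ran from 2.87 to 4.00, with the maximum on the lcbk1-2 array of 3 hr. Leaf genes were bright on every array, with signals of 24500 to 32750 for RCA (Rubisco activase) and 2526 to 4918 for PORB (a chlorophyll synthesis enzyme). The root genes PYK10 (a beta-glucosidase) and EXPA7 (a root hair expansin) were detected on all 6, at 16738 to 22106 and at 122 to 219. No listed flower or seed marker was tested on an annotated probe set.

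The differences between the genotypes were small. The middle 90% of features lay between -0.48 and 0.51 (log2, lcbk1-2 minus wild type) at 0 hr, between -0.43 and 0.54 at 3 hr and between -0.53 and 0.54 at 24 hr. At 0 hr 50 features were at least 2-fold higher in lcbk1-2 (0.319%) and 57 at least 2-fold lower (0.364%). At 3 hr these counts were 68 (0.434%) and 45 (0.287%), and at 24 hr they were 74 (0.473%) and 53 (0.339%). Most large differences were seen at a single time. Of the 551 features at least 1.5-fold higher at 0 hr (3.52% of those tested), 80 (14.5%) were also at least 1.5-fold higher at 3 hr, which is 12.6% of the 637 higher at 3 hr (4.07% of those tested). At 24 hr 66 of the 551 (12.0%) were, or 10.6% of the 625 higher at 24 hr (3.99% of those tested). Of the 425 at least 1.5-fold lower at 0 hr (2.71%), 59 (13.9%) were also lower at 3 hr, which is 18.6% of the 317 there (2.03% of those tested). At 24 hr 50 of the 425 (11.8%) were, or 8.71% of the 574 lower at 24 hr (3.67%).

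**Figure D1:**
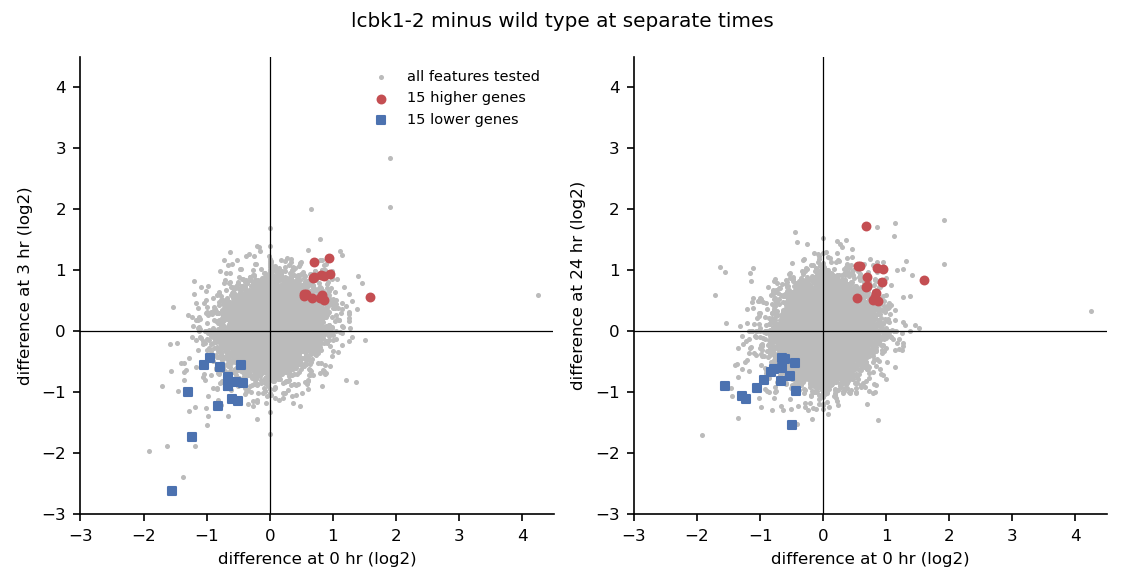
Difference of log2 signal, lcbk1-2 minus wild type, at 0 hr (x axis) against that at 3 hr (left panel) and at 24 hr (right panel), with 1 grey point per feature tested, red circles for the 15 higher genes and blue squares for the 15 lower genes chosen by the rule. The cloud is nearly round, with correlations of 0.181 and 0.101, and the chosen genes lie at its upper right and lower left by the way they were chosen.

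Across features, the differences at 0 hr and 3 hr correlated at 0.181 (Spearman 0.151), those at 3 hr and 24 hr at 0.153 (0.122), and those at 0 hr and 24 hr at 0.101 (0.0815). These are descriptions over 15654 features, which are not independent replicates, and the pairs of times share no array. The share of features with 1 sign at all times grew with brightness. It was 17.6% in the dimmest of 4 equal bins of mean signal, where values at the floor give no sign, and 38.4% in the brightest bin. The median size of the differences at single times went the other way, with 0.21 in the dimmest bin and 0.14 in the brightest. At least 1.5-fold at all 3 times were 25 features higher in lcbk1-2 (0.16% of those tested) and 19 lower (0.121%). At least 2-fold at all 3 times were 4 higher (0.0256%) and 3 lower (0.0192%). Of the 25, 7 were annotated to 1 gene, and of the 19, 9 were. The largest of the 3 differences fell at 3 hr for 14 of the 25 and for 11 of the 19, beside 4828 of all 15654 features.

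In limma, with genotype and time as terms and Benjamini-Hochberg adjustment, 1 feature was higher in lcbk1-2 (0.00639% of those tested) and 1 was lower (0.00639%) at an adjusted p under 0.05. At an unadjusted p under 0.05 there were 819 higher (5.23%) and 475 lower (3.03%). Neither called feature has a gene name in the annotation used here. Probe set 259813_at had signals of 553, 387 and 233 in lcbk1-2 at 0, 3 and 24 hr, against 147, 94.3 and 49.9 in wild type. Each lcbk1-2 array was brighter than every wild-type array, and both genotypes were dimmer at the later times. It rose by 1.92 on the log2 scale (SE 0.11, limma adjusted p = 0.0205). Probe set 267565_at had signals of 36.9, 39.4 and 28.6 in lcbk1-2, against 249, 256 and 216 in wild type. All lcbk1-2 values lay below the floor and all wild-type values well above it, so the feature was at least 3.63-fold lower in lcbk1-2 (limma adjusted p = 0.0205). The feature passed the filter through the wild type alone, so it could only be lower. Since floored values have no spread, this p may be too small. Without the pair of 0 hr, of 3 hr or of 24 hr, neither feature passed, with 1 residual degree of freedom left.

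A pair of further unnamed probe sets showed wide gaps without passing. Probe set 254283_s_at had 179, 510.5 and 403 in lcbk1-2 and 81.2, 214 and 117 in wild type, a mean difference of 1.39 with overlapping ranges (limma adjusted p = 0.158). Probe set 260869_at had 348, 227 and 69.6 in lcbk1-2 and 687, 476 and 165 in wild type, a mean difference of -1.10 (limma adjusted p = 0.158). There the ranges overlapped too, since both genotypes were lowest at 24 hr.

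The genes named below are those annotated to 1 gene with the largest smallest difference over the 3 times, 15 in each direction, with the brighter array of each pair at 2 times the floor or more. They were taken from 1006 candidates that were higher and 848 that were lower. The smallest difference of the 15 higher genes was 0.50 or more, the next candidate being AT2G28780 with 0.50. That of the 15 lower genes was -0.43 or beyond, the next being AT4G16260 with -0.42. Since these genes were chosen for their differences, the values describe them. None of the 30 passed the limma threshold, with adjusted p between 0.158 and 0.417 in limma for the higher genes and between 0.158 and 0.384 for the lower ones.

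**Figure D2:**
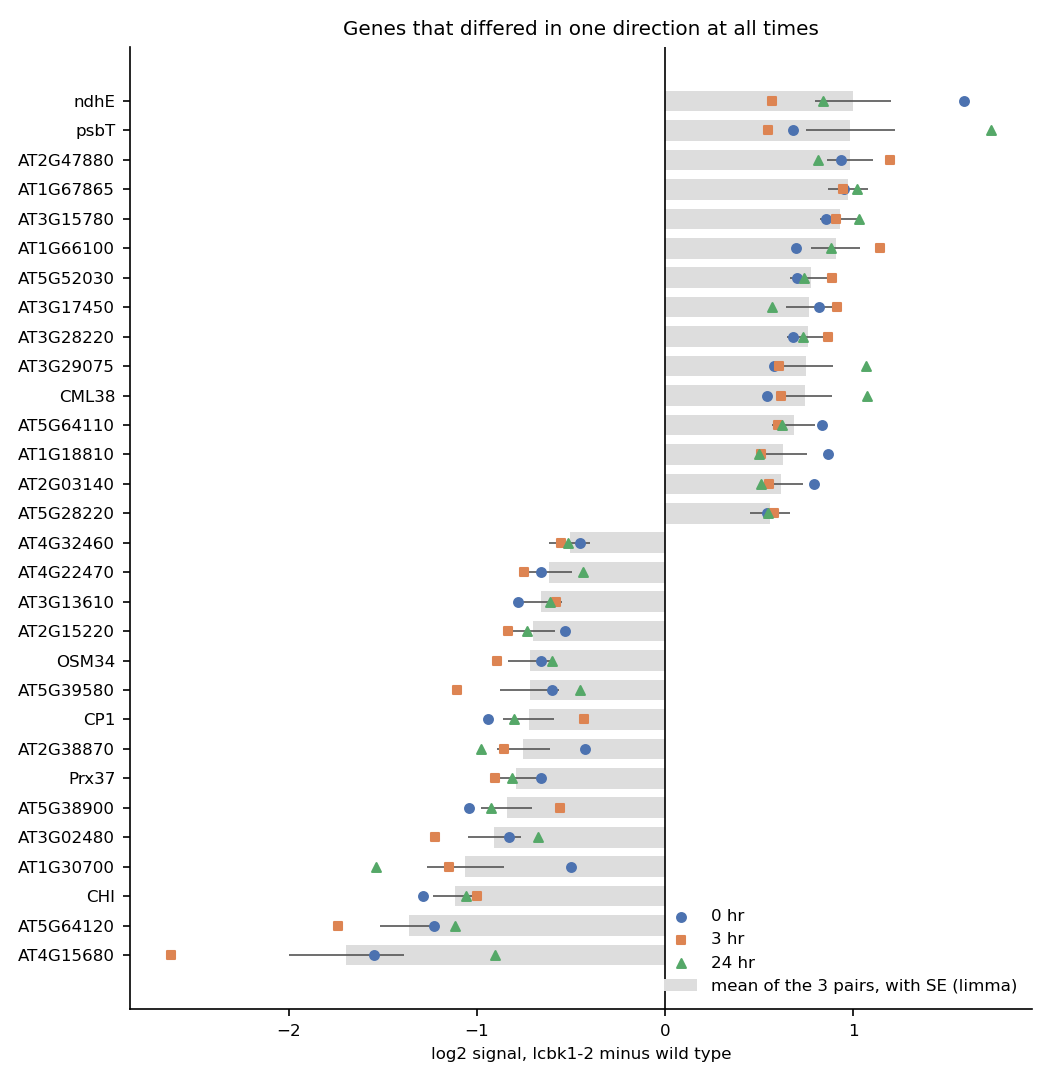
Difference of log2 signal, lcbk1-2 minus wild type, for the 15 higher and 15 lower genes chosen by the rule, with circles for 0 hr, squares for 3 hr and triangles for 24 hr. Grey bars are the mean of the 3 pairs and lines its SE from limma. Means run from -1.69 for AT4G15680 to 1.00 for ndhE.

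Several of the 15 lower genes encode proteins of defence or of the cell wall, a grouping made after their values were seen. The 15 higher genes held such genes too. Among them were the thionin-family gene AT1G66100 (mean difference 0.91) and the peroxidase gene AT5G64110 (0.69), both described below. CHI (AT2G43570), a chitinase, an enzyme type that cleaves the chitin of fungal walls, had signals of 152, 119 and 96.1 in lcbk1-2 at 0, 3 and 24 hr, against 370.5, 237 and 200.1 in wild type. The ranges did not overlap, and signals were lower at each later time in both genotypes. The mean log2 difference was -1.12 (SE 0.12, limma adjusted p = 0.158), or 2.17-fold brighter in wild type. OSM34, an osmotin, a member of the thaumatin-like defence proteins, had 1988, 1344 and 915 in lcbk1-2 and 3139, 2493 and 1386 in wild type. The order held at each time, although the lcbk1-2 0 hr array was above the wild-type 24 hr array, and the mean difference was -0.72. AT2G38870, a proteinase inhibitor of the PR-6 family, had 2164, 2134 and 1369 in lcbk1-2 and 2912, 3860 and 2693 in wild type, with no overlap and a mean difference of -0.75.

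Secondary metabolism and secreted enzymes followed. AT3G13610, a dioxygenase needed for the coumarin scopoletin, had 662, 675 and 764 in lcbk1-2, against 1139.8, 1009 and 1169 in wild type. These ranges did not overlap and changed little with time, with a mean difference of -0.66. AT1G30700, of the berberine bridge enzyme family, whose flavin-containing members oxidize a range of small molecules, had 275, 239 and 100.3 in lcbk1-2 and 388, 531 and 291 in wild type. Its difference was wider at the later times (-0.50, -1.15 and -1.54). CP1, a cysteine protease, lay lower by a mean of -0.72, AT4G22470, a lipid-transfer-like protein, by -0.62, AT2G15220, of a secreted basic protein family, by -0.70, and AT4G32460, of a family of cell wall proteins, by -0.51. The probe set of AT2G15220 may match further transcripts, as its suffix marks.

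Peroxidases stood on both sides. Class III peroxidases are secreted heme enzymes that use hydrogen peroxide to cross-link or loosen the cell wall. AT5G64120 had signals of 1065, 683 and 379 in lcbk1-2 at 0, 3 and 24 hr, against 2490.2, 2285 and 822 in wild type. It was lower in lcbk1-2 at each time and fainter at 24 hr in both genotypes, so that the lcbk1-2 0 hr array was above the wild-type 24 hr array. The mean difference was -1.36 (SE 0.15, limma adjusted p = 0.158). AT5G64110, the locus numbered just before it, ran the other way, with 232, 267 and 289 in lcbk1-2 and 129.6, 177 and 188 in wild type. Its ranges did not overlap and its mean difference was 0.69. AT5G64100, numbered next, had 2430.2, 1994 and 1751 in lcbk1-2 and 3287, 2932 and 2164 in wild type, a mean difference of -0.43. Prx37 (-0.79) and AT5G39580 (-0.72) were among the 15 lower genes as well. Whether probes of these related genes bind each other's transcripts was not tested.

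**Figure D3:**
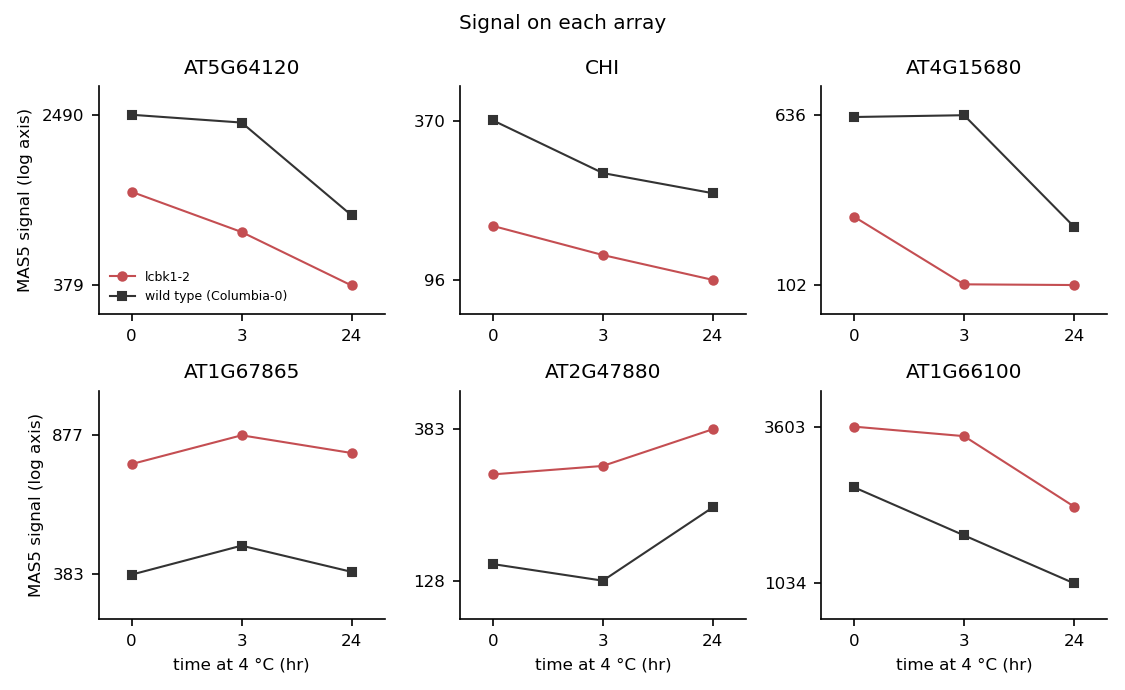
MAS5 signal (log axis) against time at 4 °C in hours for 6 genes, with red circles for lcbk1-2 and black squares for wild type, 1 array per point. The lcbk1-2 line lies below the wild-type line at every time for AT5G64120, CHI and AT4G15680 and above it for AT1G67865, AT2G47880 and AT1G66100.

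Glutaredoxins of the plant-specific CC type, small thiol proteins that work in part by binding TGA transcription factors, also appeared in both directions. AT4G15680 had signals of 213, 103 and 102 in lcbk1-2, against 624, 636 and 191 in wild type. The gap was widest at 3 hr, where the wild-type array was about as bright as at 0 hr and the lcbk1-2 array was not, and narrowest at 24 hr. Its mean difference of -1.69 was the lowest of the 30 genes, and its SE of 0.30 the highest (limma adjusted p = 0.341). AT2G47880, another member, had 276, 293 and 383 in lcbk1-2 and 144, 128 and 217 in wild type. The ranges did not overlap and the mean difference was 0.98 (SE 0.12, limma adjusted p = 0.158). Further lower genes with a redox or stress annotation were AT5G38900, a thioredoxin-like protein, at -0.84, and AT3G02480, of the LEA family of desiccation-associated proteins, at -0.91.

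AT1G67865 stood first among the 15 higher genes by its smallest difference over the times. Its signals were 739, 877 and 789 in lcbk1-2, against 383, 455 and 389 in wild type, with differences of 0.95, 0.95 and 1.02. The ranges did not overlap (mean 0.97, SE 0.11, limma adjusted p = 0.158). AT3G15780 had 367, 254 and 227 in lcbk1-2 and 203, 135 and 111 in wild type, a mean difference of 0.93. AT1G66100, of the thionin family of small antimicrobial peptides, had 3603, 3341 and 1906 in lcbk1-2, against 2221, 1514 and 1034 in wild type. Both genotypes were dimmest at 24 hr, the ranges overlapped, and the mean difference was 0.91. AT3G28220, a TRAF-like protein, had 489, 1022 and 1558 in lcbk1-2 and 305, 560.4 and 936 in wild type. It was brighter at each later time in both genotypes and higher in lcbk1-2 by 0.68, 0.87 and 0.73.

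CML38, a calmodulin-like calcium sensor, had 272, 3114 and 484 in lcbk1-2, against 187, 2032 and 230.1 in wild type. The 3 hr arrays were by far the brightest in both genotypes, and the difference at 24 hr (1.07) was larger than at 0 hr (0.54) and 3 hr (0.62). AT5G52030 had 195, 195 and 174 in lcbk1-2 and 120.2, 105 and 104 in wild type, with no overlap and a mean difference of 0.78. The remaining higher genes of the nuclear genome were AT3G17450 (0.77), AT3G29075 (0.75), AT1G18810 (0.63), AT2G03140 (0.62) and AT5G28220 (0.56).

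With an intensity trend and robust estimation of limma's prior, a setting that lets bright and dim features have different expected spreads, 19 features were higher in lcbk1-2 (0.121% of those tested) and 18 lower (0.115%) at an adjusted p under 0.05. All 19 and all 18 had the same sign at all 3 times, which a pass in a fit over 3 pairs largely requires. Of those annotated to 1 gene, 6 rose and 8 fell at this setting. The 6 were AT1G67865, AT2G47880, AT1G66100, AT3G28220, ECS1 and AT2G25510. The 8 were AT4G15680, AT5G64120, AT1G26390, CHI, AT2G38870, OSM34, AT3G13610 and AT3G05730. Their adjusted p in limma with the trend lay between 0.00485 for AT5G64120 and 0.0495 for AT2G25510. The call of AT1G26390 rests on lcbk1-2 values that all lie at the floor. ECS1, AT2G25510 and AT3G05730 are named because they passed here, so after their values were seen. ECS1, a cell wall protein, had 14975, 13696 and 6988 in lcbk1-2, against 8187, 6847 and 5343 in wild type. AT2G25510 had 7478, 7965 and 6812 in lcbk1-2 and 5006, 4773 and 5327 in wild type, with no overlap. AT3G05730, a defensin-like protein, had 9941, 11102 and 10189 in lcbk1-2 and 16882, 14706 and 14340.3 in wild type, also with no overlap.

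Gene families were followed by counting members on annotated probe sets. The lists and families were chosen with earlier results of these data known, so their counts are descriptions and not tests. No list or family member passed limma with the constant prior. The counts over all 3 times below are read against the 15.1% higher and 13.3% lower among all features. Counts over 2 pairs have larger shares among all features, given beside them. Of 11 measured chitinases, 0 were higher at all times and 5 were lower (45.5%), with a median mean difference of -0.21 against 0.01 over all features. Beside CHI these were AT2G43620, with 264, 241 and 1550 in lcbk1-2 and 462, 576 and 1956 in wild type (-0.80), AT1G02360 (-0.52), AT2G43590 (-0.42) and AT3G47540 (-0.21). Without the 24 hr pair the median was -0.32, with 1 member higher and 7 lower at both remaining times. Of all 15654 features, 4352 were higher and 3862 lower in that setting. Median and quantile scaling of the arrays left the family's median negative. The floor bears on the count of 0 higher members. AT4G19820 had 107, 110 and 58.0 in lcbk1-2 and 77.8, 91.9 and 32.8 in wild type. It was brighter in lcbk1-2 at each time, but both 24 hr values lay below the floor, so it was not counted. AT1G56680 and AT4G19720 also had both values below the floor at 1 time or more, and could not be counted in either direction.

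Of 11 berberine bridge enzymes, 2 were higher at all times (18.2%) and 4 lower (36.4%), with a median of -0.17. The median was -0.02 without the 0 hr pair and -0.35 without the 24 hr pair. In the latter setting 8 were lower at both remaining times, beside 3862 of all 15654 features. AT1G26390 lay below the floor on every lcbk1-2 array (23.4, 26.9 and 18.4), against 180.4, 131 and 139 in wild type. It was at least 2.25-fold lower in lcbk1-2. It passed the filter on low values through the wild type alone, so it could only be lower, and its limma adjusted p of 0.158 may be too small because the floored values have no spread. AT5G44380 had 1007, 866 and 468 in lcbk1-2 and 1272, 1172 and 644 in wild type, a mean difference of -0.41. AT5G44400, on the other side, lay at 0.37.

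The 36 measured class III peroxidases were split evenly, 7 higher at all times (19.4%) and 6 lower (16.7%), with a median of -0.04 (0.05 without the 3 hr pair). The 6 lower ones had mean differences from -1.36 (AT5G64120) to -0.35 (AT2G37130), whereas 6 of the 7 higher ones lay between 0.06 and 0.18, the exception being AT5G64110. CC-type glutaredoxins had 2 of 16 higher (12.5%) and 3 lower (18.8%), with a median of 0.04. In the run of loci from AT4G15660 to AT4G15700, the 4 measured members had negative mean differences of -0.08, -1.69, -0.26 and -0.62. The other member higher at all times was GRX480, a glutaredoxin of salicylic acid signalling, with 188, 66.4 and 123 in lcbk1-2 and 108, 51.8 and 72.3 in wild type. At 3 hr its lcbk1-2 value was just above the floor and its wild-type value below it, a difference of 0.00788, so the count rests on the floor there.

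**Figure D4:**
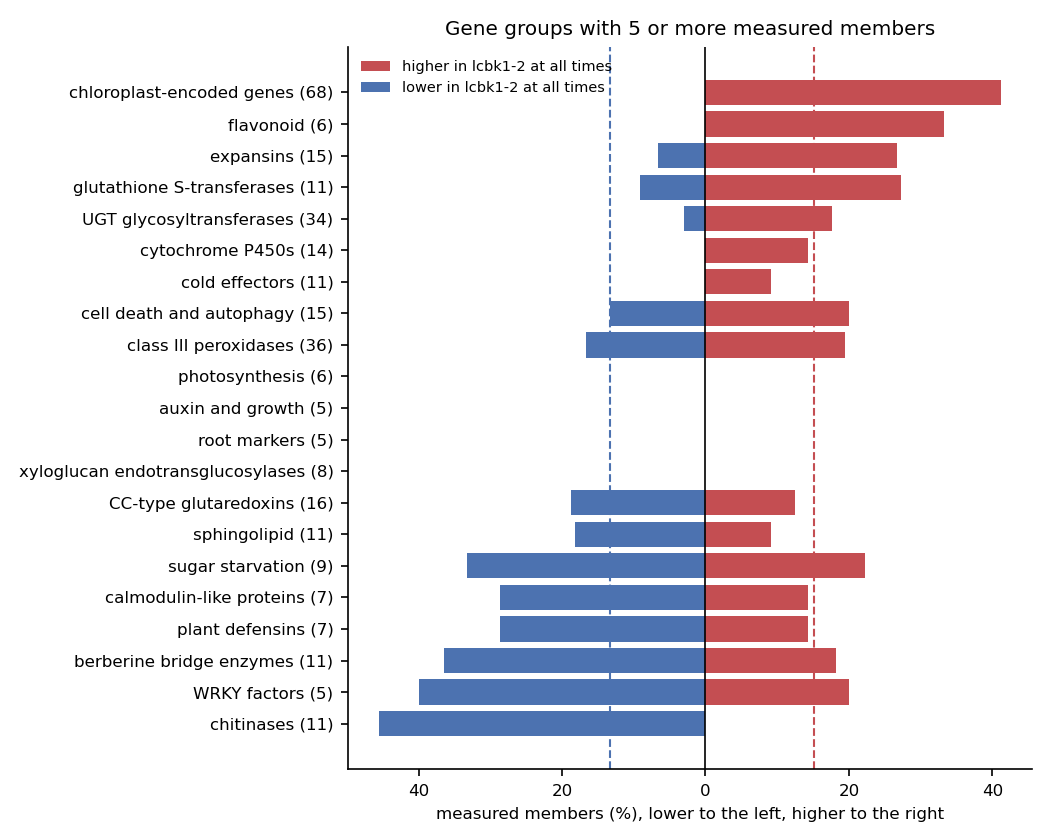
Share of measured members (%) that were higher in lcbk1-2 at all 3 times (red, to the right) or lower at all 3 times (blue, to the left), for each gene group with 5 or more measured members, whose number stands in brackets. Dashed lines mark 15.1% and 13.3%, the shares over all features tested, bright and dim together. Chloroplast-encoded genes (41.2% higher) and chitinases (45.5% lower) are at the ends.

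Of 69 annotated chloroplast-encoded genes, which hold subunits of the photosystems, the cytochrome complex, the NDH complex, ATP synthase and the ribosome, 68 were measured. At all 3 times 28 were higher in lcbk1-2 (41.2%) and 0 were lower, with a median of 0.24. The median difference was 0.07 at 0 hr, 0.18 at 3 hr and 0.25 at 24 hr, and positive differences numbered 39, 55 and 61 of the 68. Without the 0 hr pair 48 of the 68 were higher and 0 lower at both remaining times, beside 4131 and 3728 of all features. Without the 3 hr pair 35 were higher and 3 lower, beside 3811 and 3804 of all features. Without the 24 hr pair there were 32 and 6, beside 4352 and 3862. These genes share an organelle and many share a polycistronic transcript, so they are not independent. Many of them were also bright, and the 15.1% higher among all features is not matched for brightness. In the brightest of 4 equal bins, 38.4% of features had the same sign at all times, both directions counted together. That share was not split by direction, so no brightness-matched share of higher features is given. Counts of these genes after median or quantile scaling of the arrays are not given either. ndhE, an NDH subunit, had 681, 771 and 628 in lcbk1-2, against 226, 520.3 and 350.5 in wild type, and psbT, a photosystem II subunit, had 805, 876 and 1237 in lcbk1-2, against 503, 599.7 and 372 in wild type. Neither pair of ranges overlapped, and the largest gap of ndhE was at 0 hr and that of psbT at 24 hr.

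petG, a cytochrome complex subunit counted among the 28, lay below the floor on every wild-type array and passed the filter through lcbk1-2 alone. petL, of the same complex, had 1259, 1364 and 1141 in lcbk1-2, against 66.3, 908 and 909 in wild type. The single dim wild-type array at 0 hr gave a difference of 4.25 there, beside 0.59 and 0.33 at the later times. That array is also the one whose hybridization controls were brightest, and the part of this in the result was not tested. The genes of the ribosome and the RNA polymerase included the lowest values at 0 hr, with rpoC2 at -1.13, rps2 at -1.11 and rpl16 at -0.996, and each of these 3 was positive at 24 hr. Nuclear photosynthesis genes showed no shared sign. Of 6 measured, among them RCA, LHCB4.2 and PSAE-1, 0 were higher and 0 lower at all times, with a median of -0.09.

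**Figure D5:**
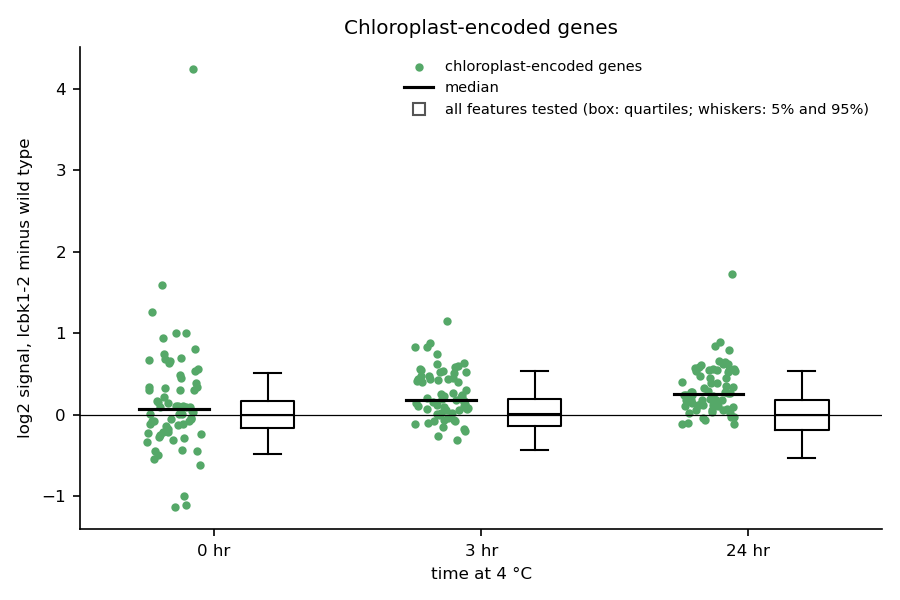
Difference of log2 signal, lcbk1-2 minus wild type, at each time for the 68 measured chloroplast-encoded genes (green points, black line at their median) beside boxes for all 15654 features tested (quartiles, with whiskers at 5% and 95%). The medians of the green points are 0.07, 0.18 and 0.25, and the spread is widest at 0 hr.

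Genes of sphingolipid metabolism were the pathway of the mutated kinase. Of 38 listed loci, 12 were on annotated probe sets and 11 were measured. At all times 1 was higher (9.09%) and 2 were lower (18.2%), with a median of -0.08, and the lowest limma adjusted p was 0.569. AT2G38010, a neutral ceramidase that releases long-chain bases from ceramide, had 258, 348 and 312 in lcbk1-2 and 175, 303 and 258 in wild type. It was higher at each time, by 0.34 on average. TSC10B, one of the reductases of long-chain base synthesis, had 164, 130.2 and 51.7 in lcbk1-2 and 181, 188 and 82.1 in wild type, a mean difference of -0.33. AT1G01230, an ORM protein that restrains the first enzyme of the pathway, lay at -0.06.

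The long-chain base lyase gene DPL1, which acts on the product of the kinase, had 596, 485 and 363 in lcbk1-2, against 560.1, 628 and 499.7 in wild type. It was slightly brighter in lcbk1-2 at 0 hr and dimmer at 3 hr and 24 hr, with a mean difference of -0.25 (limma adjusted p = 0.672). LCB2, a subunit of serine palmitoyltransferase, followed the same order of signs, with 0.22, -0.23 and -0.24. The other reductase TSC10A (-0.10), the alkaline ceramidase-like ATCES1 (-0.11), AT1G07380 (-0.08), EPC1 (-0.01), AT2G19880 (-0.01) and AT5G42000 (0.04) had mean differences near 0.

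Cold-regulated effector genes are known to accumulate strongly in the cold, and 11 were measured. At all times 1 was higher (9.09%) and 0 were lower, with a median of 0.06. LEA4-5, the higher one, had 287, 135 and 8174 in lcbk1-2, against 212, 129 and 7414 in wild type, a mean difference of 0.21. COR15A, whose product protects chloroplast membranes, had 891, 2537 and 33884 in lcbk1-2 and 494, 1267 and 37229 in wild type. It was brighter in lcbk1-2 at 0 hr and 3 hr, by 0.85 and 1.00, and not at 24 hr (-0.14). STZ, the one measured member of the cold transcription factor list, had a mean difference of 0.23.

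Of 6 measured flavonoid genes, 2 were higher at all times (33.3%) and 0 were lower, with a median of 0.46 that depended on the floor (0.73 with none, 0.25 at 2 times 66). UF3GT and AT5MAT lay below the floor on every wild-type array and passed the filter through lcbk1-2 alone, so they could not show a negative difference. Without the 0 hr pair 5 were higher at both remaining times, beside 4131 of all 15654 features. DFR, the reductase that leads towards anthocyanins, had 131.6, 201 and 100.03 in lcbk1-2, against 66.5, 110.0 and 87.4 in wild type, a mean difference of 0.68. UGT78D1, a flavonol glycosyltransferase, had 368, 1810 and 960 in lcbk1-2 and 266, 1189 and 916 in wild type, a mean difference of 0.38. The limma adjusted p of the list were 0.44 or more, and 3 of the other 4 genes lay below the floor on both arrays at 0 hr.

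Of 9 sugar starvation genes, 2 were higher at all times (22.2%) and 3 lower (33.3%), with a median of -0.05. ATL8, a ubiquitin ligase gene, had 348, 142 and 66.5 in lcbk1-2 and 483, 253 and 95.6 in wild type, a mean difference of -0.61. Of 3 measured oxidative stress genes 2 were lower at all times, NDB2, an alternative mitochondrial NADH dehydrogenase, at -0.26 and AT2G21640 at -0.57. The differences of AT2G21640 were -0.02, -0.87 and -0.83 at 0, 3 and 24 hr, so the genotypes were nearly equal at 0 hr. Its lcbk1-2 signal at 24 hr lay below the floor. Both measured glucosinolate genes, BCAT4 and UGT74B1, were higher at all times, each by 0.28. UGT glycosyltransferases had 6 of 34 higher (17.6%) and 1 lower (2.94%). Expansins, which loosen cell walls, had 4 of 15 higher (26.7%) and 1 lower (6.67%), glutathione S-transferases 3 of 11 (27.3%) and 1 (9.09%), and cell death and autophagy genes 3 of 15 (20%) and 2 (13.3%).

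Plant defensins had 1 of 7 higher at all times (14.3%) and 2 lower (28.6%), and calmodulin-like proteins had the same counts. WRKY factors had 1 of 5 higher (20%) and 2 lower (40%), and cytochrome P450s 2 of 14 higher (14.3%) and 0 lower. These groups are small. WRKY47 had 269.8, 286 and 133 in lcbk1-2 and 359, 344 and 220 in wild type, a mean difference of -0.47. The 8 measured xyloglucan endotransglucosylases and the 5 measured root markers had 0 members with 1 sign at all times. So had the lists of auxin and growth (5 measured), heat shock (3) and iron deficiency (2), and the single measured genes of ethylene, the clock and phosphate starvation. Of 4 nitrate and sulfate genes 1 was higher, of 3 salicylic acid and defence genes 1 was lower (CHI), and of 2 jasmonate genes 1 was lower (PDF1.2b, -0.33). The lists of phospholipid signalling, abscisic acid, and flower and seed markers had 0 measured members.

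By gene order in TAIR10.1, the 30 protein-coding genes on either side of LCBK1 were examined. Of these 60 genes 25 had an annotated probe set and 22 were measured. At all times 4 were higher and 4 lower, with a median of 0.02 and a range from -0.36 to 0.53. Probe sets without annotation could not be placed, so any from this region are not in these counts. The next gene, AT5G23460, was the highest, with 462, 225 and 177 in lcbk1-2 and 308, 213 and 92.4 in wild type. Over the nuclear chromosomes, the share of named features higher at all times was 14% to 15.8% and the share lower was 11.9% to 13.1%.

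The consistent features were also set beside their change in the cold, taken as the mean of both genotypes at 24 hr against 0 hr. Of the 19 features at least 1.5-fold lower at all times, 5 were at least 2-fold dimmer at 24 hr (26.3%), against 12.1% of all features, and 0 were at least 2-fold brighter, against 9.42%. Of the 25 higher ones, 2 were dimmer (8.00%) and 3 brighter (12.0%). These counts are small and describe the listed features. An exact sign-flip test of 1 gene over 3 pairs cannot give a two-sided p below 0.25, so none was used.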

How the data were processed

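For each ATH1 array the authors deposited a linear intensity per probe set, made with MAS5 per the submitters' processing notes, whose version was not given in the sources used. The 2% trimmed mean of the deposited values was 500.1 on every array. Names came from the platform annotation and RefSeq's TAIR10.1 gene table (13484 of 13513 probe sets of 1 gene matched a locus), and 8730 probe sets had none. The brightest probe set of a gene was kept. With a floor of 66, limma 3.58.1 (R 4.3.3) fitted genotype and time on log2 intensity, two-sided, leaving 2 residual degrees of freedom (prior 4.19, prior SD 0.16). Its p-values measure the spread between these 6 unreplicated arrays, any change of the genotype difference with time included, whose small number limits precision. The pairing comes from the time labels.

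Named are the sphingolipid list, the 15 genes per direction defined in the report, list members at least 1.5-fold apart at all times, and family examples. The members, 22 lists (485 loci, 91 measured) and 13 families were chosen with earlier results of these data known. The ERF, NAC, MYB, germin-like, lectin, aquaporin and extensin families had too few tested features with such symbols to be counted. The fit was also run on simulated data with the same spread for every feature, no floor after the noise and a constant difference over time. These settings differ from the real arrays, so that run cannot show how well the fit works on them. Alternatives changed the floor, filter, scaling, prior, block, probe set choice and pairs used. No sequence was used here.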

Additional observations from a re-analysis of the deposited data

Results flagged for a closer look

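Large differences of opposite sign at different times were seen for 4 of 346 listed features, and for 105 of all features tested (0.671%). With 1 array per genotype and time, the difference was not tested for any of them. AT1G26380, of the berberine bridge enzyme family, was higher in lcbk1-2 at 24 hr (0.975 on the log2 scale) and lower at 0 hr (-1.56). Its signals were 5.84, 13.9 and 129.8 in lcbk1-2, against 195, 104 and 34.7 in wild type, so each large value stands against one below the floor. The expansin gene EXPA16 was higher at 0 hr (0.725) and lower at 24 hr (-0.764), with 262, 69.3 and 217 in lcbk1-2 and 159, 90.1 and 369 in wild type. Another expansin gene, EXPB1, had 0.672 at 0 hr and -0.824 at 24 hr, with 189, 379 and 57.7 in lcbk1-2 and 119, 303 and 117 in wild type. XTH33, a xyloglucan endotransglucosylase, had 0.606 at 0 hr and -0.794 at 3 hr, with 352, 129.8 and 70.8 in lcbk1-2 and 231, 225 and 109 in wild type.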

How the results depend on the processing

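The limma calls, 1 higher and 1 lower, depended on the setting. They stayed 1 and 1, the same features, with arrays scaled to a common median, with quantile normalization and with all probe sets kept. With an intensity trend and robust prior they were 19 and 18, among them both features. With a floor of 33 they were 0 and 1. They were 0 and 0 with no floor, a floor of 2 times 66, no filter, no moderation and no replicate block, where 1181, 1340, 1482, 1021 and 141 features had an unadjusted limma p under 0.05. They were also 0 and 0 with a filter on all 6 arrays (1186 such features), which removed both called features before the test. Without 1 pair (0 hr, 3 hr or 24 hr) they were 0 to 0 in each direction, with 851 to 1062 such features and 1 residual degree of freedom. Features at least 1.5-fold higher and lower at all times numbered 47 and 38 with no floor, 39 and 36 with a floor of 33, and 14 and 11 with a floor of 2 times 66. Over 2 pairs they numbered 66 to 80 and 49 to 59, and features of 1 sign 7615 to 8214, since fewer pairs must match. Of the features of 1 sign 53.1% were higher, 45.3% after median scaling and 48.5% after quantile normalization. Of 473 values of the 34 single features named by the rule, 444 kept their side of the threshold, 12 passed it newly, 17 no longer passed and 0 changed sign. Without 1 pair in turn, values near 0 changed sign. They ranged from -0.0597 to 0.189 for AT5G42000 (negative without 0 hr and, at -0.0122, without 3 hr), from -0.102 to 0.0569 for EPC1 (0.00859 without 0 hr), from -0.195 to 0.0308 for ATCES1 and from -0.176 to 0.0832 for AT2G19880 (0.0694 without 24 hr). The median of the class III peroxidases ranged from -0.126 to 0.0518. The cause of these shifts was not tested.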
